A study of Mus musculus with 14 samples.

Results

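Brown fat burns fuel to make heat, and the set described here holds 9 genes that mark or run that programme: Ucp1, Cidea, Ppargc1a, Prdm16, Dio2, Elovl3, Ppara, Kcnk3 and Zic1. They were chosen by name, and a gene's value was the mean of the probe sets that a platform annotation gives to that gene alone. On that rule 8 of the 9 genes had a value, among 22180 genes measured with 33793 probe sets. Both probe sets that carry the name Kcnk3 are also given to a second gene, so Kcnk3, a potassium channel, is named here without a value. Prdm16 and Dio2 had 2 probe sets each and the other 6 genes 1 each.

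Brown adipocytes hold many small lipid droplets and many mitochondria. Cold and sympathetic nerves, acting through beta-adrenergic receptors and cyclic AMP, raise the release of fatty acids and the transcription of thermogenic genes. Fat around the mouse thoracic aorta is known to resemble brown fat, while fat further down the aorta is closer to white fat.

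Gene expression was measured on arrays in aorta with its perivascular fat and in CD115+ cells taken from blood with magnetic beads; CD115, the product of Csf1r, is a growth factor receptor on monocytes. Double-deficient mice lacked apolipoprotein E together with the receptor for lymphotoxin beta (ApoE/LTbR-double deficient, "KO" in the sample titles), and ApoE-deficient littermates ("WT" in the titles) lacked apolipoprotein E alone, so no group was wild type. All mice were male and 12 weeks old, with the last 4 weeks, from an age of 8 weeks, on a Western type diet. There were 4 double-deficient and 4 ApoE-deficient aortas, and 3 double-deficient and 3 ApoE-deficient CD115+ preparations. The ApoE-deficient CD115+ replicates 3 and 4 each pooled cells of 2 littermates. The sources used here do not say how the genes were deleted or which length of aorta was taken. The labels call the other preparations single samples, so p-values measure the spread between these samples. Values below are log2 signals counted from the middle array of the same tissue, probe set by probe set. A value of 0 is therefore the middle of the tissue and not absence, and no gene or tissue can be ranked against another by level. In whole tissue, fewer cells of a type and less RNA per cell cannot be told apart.

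As a check of the labels, Ltbr ran from -1.29 to -0.49 in double-deficient and from 0.49 to 0.89 in ApoE-deficient aortas, and from -0.62 to -0.07 in double-deficient and 0.07 to 0.55 in ApoE-deficient CD115+ preparations. The groups did not overlap in either tissue, as in 4.3% of all genes in aorta and 9.16% in CD115+ cells. In CD115+ cells the nearest values were those of double-deficient preparation 1 (-0.07) and ApoE-deficient preparation 3 (0.07). Double-deficient preparations 2 and 3 stood at -0.62 and -0.44. Whether signals were high could be read only coarsely, from the rounding step of the stored numbers, which is coarser for log2 signals of 8 or more. A lower signal can pass this reading by chance, and an unrecorded processing step could also coarsen the values. In aorta 14.2% of all genes had the coarse step. Among the brown fat genes these were Ucp1, Cidea, Ppargc1a and Elovl3, while Prdm16, Dio2, Ppara and Zic1 did not have it. Fat markers had it too, with 8 of the 12 white adipocyte markers measured (Adipoq, Fabp4, Lep, Lpl, Nnat, Plin1, Retn and Slc2a4). In the CD115+ arrays 8.81% of genes had the coarse step, and Ucp1 and Cidea were among them. So were 6 of 12 white adipocyte markers, including the adipokine gene Adipoq and the lipid droplet gene Plin1, and 4 of 8 smooth muscle markers (Acta2, Cnn1, Myh11 and Tagln). Of the monocyte markers 4 of 8 had it, namely Ccr2, Csf1r, Cx3cr1 and Lyz2, against 0 of 10 skeletal muscle and 0 of 7 lymphocyte markers. Sympathetic nerve markers had it in 3 of 7 genes (Chga, Dbh and Npy). The fat and vessel genes are not markers of blood monocytes.

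The promoters of Ucp1, Ppargc1a and Ppara are shown because these genes moved together across the CD115+ preparations described below and because cyclic AMP signalling reaches Ucp1 and Ppargc1a in brown fat. RefSeq sequences on GRCm38.p6, from 250 bases before to 50 after the start of a transcript, were at hand for 6 of the 9 genes. Capitals mark 3 motifs searched on both strands. TGACG is the half-site of the cyclic AMP response element. AGGTCA is the half-site of nuclear receptors. The box that places the start of many transcripts was searched as TATAAA. No match overlapped another in these 3 promoters. Ucp1 lies at chr8:83290098-83290397 (plus strand), Ppargc1a at chr5:51567676-51567975 (minus strand) and Ppara at chr15:85735526-85735825 (plus strand).
Ucp1: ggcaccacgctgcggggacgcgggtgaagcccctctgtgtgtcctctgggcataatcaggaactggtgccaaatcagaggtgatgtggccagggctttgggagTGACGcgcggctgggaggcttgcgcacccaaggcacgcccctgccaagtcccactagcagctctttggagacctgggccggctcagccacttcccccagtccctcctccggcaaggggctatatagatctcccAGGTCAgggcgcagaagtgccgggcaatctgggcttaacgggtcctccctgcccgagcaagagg
Ppargc1a: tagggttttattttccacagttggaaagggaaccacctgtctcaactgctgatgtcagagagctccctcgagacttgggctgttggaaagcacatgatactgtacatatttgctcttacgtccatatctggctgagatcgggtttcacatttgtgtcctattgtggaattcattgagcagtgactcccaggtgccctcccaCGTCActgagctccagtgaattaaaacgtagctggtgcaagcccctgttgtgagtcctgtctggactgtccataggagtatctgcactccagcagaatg
Ppara: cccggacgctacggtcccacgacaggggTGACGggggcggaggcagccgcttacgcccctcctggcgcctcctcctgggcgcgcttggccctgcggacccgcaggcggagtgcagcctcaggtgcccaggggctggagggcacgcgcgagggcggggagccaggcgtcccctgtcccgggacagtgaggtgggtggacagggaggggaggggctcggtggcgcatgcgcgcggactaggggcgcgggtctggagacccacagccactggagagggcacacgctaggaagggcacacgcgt

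Each of the 3 held 1 TGACG match, which 20.8% of 32817 mouse promoters of this length hold. Dio2 held 2 that overlap, on opposite strands of the same stretch, and they are not separate sites. Ucp1 also held 1 AGGTCA match, found in 16.3% of promoters. TATAAA, found in 13.6%, occurred among the 6 promoters in Dio2. No TGACG stood in the Prdm16 and Zic1 windows. These are matches of letters and say nothing of binding.

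The first comparison asked what loss of the lymphotoxin beta receptor changed in brown fat genes of the aorta. Ucp1, the uncoupling protein that lets protons leak back into the mitochondrion and so makes heat, was almost level between genotypes. Its values were -0.12, 0.03, -0.35 and 0.19 in double-deficient aortas 1 to 4, against -0.15, -0.01, 0.12 and 0.01 in ApoE-deficient aortas 1 to 4. The double-deficient aortas held both the lowest and the highest value, and the groups overlapped. The difference, double-deficient minus ApoE-deficient, was -0.06 on the log2 scale (SE 0.12, 95% interval -0.34 to 0.23, limma adjusted p = 0.946), which is a fold of 0.961 with an interval of 0.79 to 1.17. All 8 aortas lay within a 1.46-fold range of Ucp1 signal.

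Cidea, a lipid droplet protein abundant in brown fat, also differed little between genotypes, though with the opposite sign to Ucp1. Its values were -0.03, 0.16, -0.06 and 0.16 in double-deficient aortas, against -0.15, -0.34, 0.20 and 0.03 in ApoE-deficient ones. The 2 genotypes overlapped, with ApoE-deficient aorta 3 the highest of all. The difference was 0.12 (SE 0.13, interval -0.17 to 0.41, limma adjusted p = 0.877), and it ran from 0.0277 without ApoE-deficient replicate 2 to 0.21 without ApoE-deficient replicate 3.

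Elovl3, which lengthens very long chain fatty acids and is induced by cold in brown fat, varied most of the set. It stood at -0.54, -0.40, -0.79 and 1.55 in double-deficient aortas, against -2.23, 0.64, 0.94 and 0.40 in ApoE-deficient aortas. One aorta of each genotype stood apart, double-deficient aorta 4 high and ApoE-deficient aorta 1 low. The whole range was 13.8-fold, and the SD over the 8 aortas (1.19) was larger than that of 99.3% of genes, whose median SD was 0.198. The genotype difference was 0.02 (SE 0.79, limma adjusted p = 0.998). Its interval, -1.82 to 1.86, does not exclude a difference of 3-fold either way. Without double-deficient replicate 4 the difference was -0.51 and without ApoE-deficient replicate 1 it was -0.70.

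Dio2 makes the enzyme that turns thyroxine into active thyroid hormone inside the brown adipocyte. As the mean of its probe sets it was -0.06, 0.03, -0.43 and -0.04 in double-deficient aortas, against -0.56, 0.38, -0.16 and 0.33 in ApoE-deficient ones. The ApoE-deficient aortas spanned the double-deficient ones. The difference was -0.12 (SE 0.22, interval -0.63 to 0.39, limma adjusted p = 0.937). Its 2 probe sets did not follow each other: the first ran from -0.18 to 0.05 in double-deficient and from -0.11 to 0.29 in ApoE-deficient aortas, the second from -0.91 to 0.12 in double-deficient and from -1.15 to 0.54 in ApoE-deficient aortas. The low values of double-deficient aorta 3 and ApoE-deficient aorta 1 came from the second probe set alone.

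**Figure D1:**
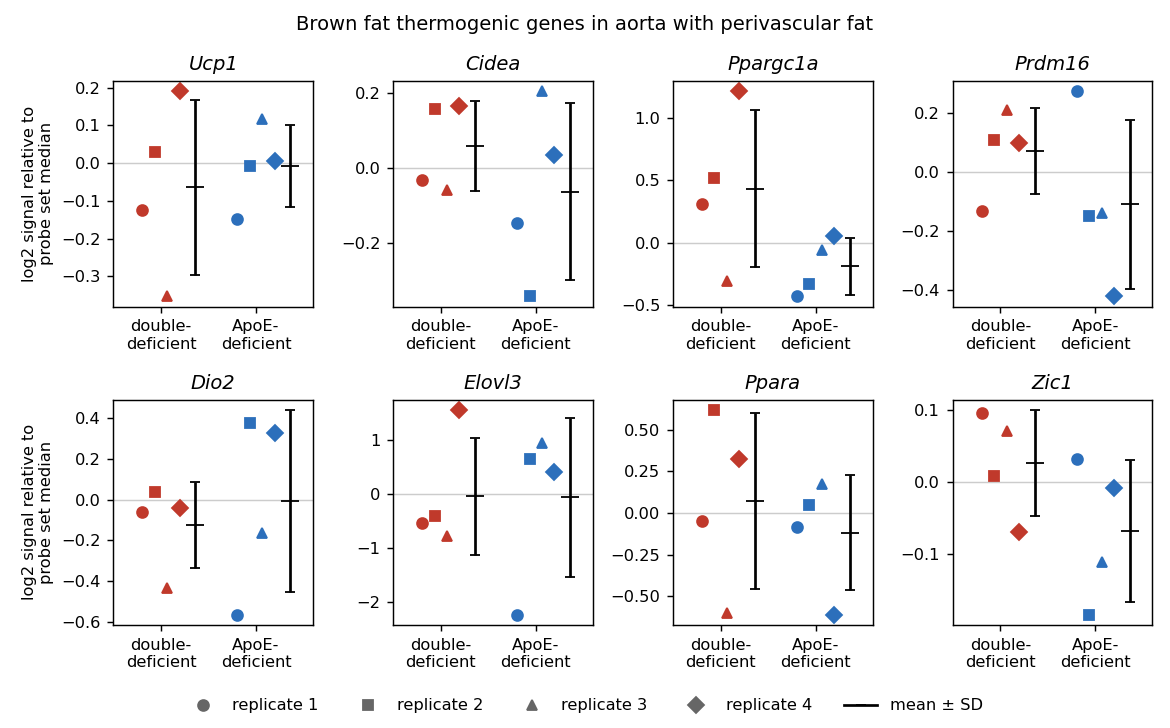
Log2 signal relative to the probe set median (vertical axis, a scale of its own in each panel) of the 8 measured brown fat genes in double-deficient (red, left) and ApoE-deficient (blue, right) aortas with perivascular fat; each symbol is 1 aorta, and black bars are mean ± SD (n = 4 each). In Ppargc1a 3 double-deficient aortas lie above every ApoE-deficient aorta, while the groups overlap in all 8 panels.

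Among the regulators, Ppargc1a had the largest difference of the set. It encodes the coactivator PGC-1alpha, which is induced by beta-adrenergic signals and drives both mitochondrial biogenesis and Ucp1 transcription. Its values were 0.31, 0.52, -0.31 and 1.21 in double-deficient aortas, against -0.43, -0.33, -0.06 and 0.06 in ApoE-deficient ones. Double-deficient aortas 1, 2 and 4 lay above all ApoE-deficient aortas, and double-deficient aorta 3 lay among them. The mean was 0.43 ± 0.63 in double-deficient and -0.19 ± 0.23 in ApoE-deficient aortas (SD, n = 4 each), a difference of 0.62 (SE 0.30, interval -0.06 to 1.31). That is a fold of 1.54, with an interval of 0.959 to 2.47. It did not pass the threshold over all genes (limma adjusted p = 0.664), and Ppargc1a stood at rank 2295 of 22180 genes by p. The exact permutation test of this gene gave a two-sided p of 0.0857, where 4 against 4 samples allow 0.0286 at the least. Without double-deficient replicate 3 the difference was 0.87 (SE 0.23, limma adjusted p = 0.564) and its unadjusted p was then under 0.05, as was that of 7.56% of all genes, and without double-deficient replicate 4 it was 0.36.

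Ppara, a nuclear receptor that fatty acids activate and that turns on fatty acid oxidation genes, varied widely within both genotypes. It was -0.05, 0.62, -0.60 and 0.32 in double-deficient aortas, against -0.09, 0.05, 0.17 and -0.61 in ApoE-deficient ones. The lowest aorta of each genotype lay at nearly the same value. The difference was 0.19 (SE 0.28, interval -0.45 to 0.84, limma adjusted p = 0.92). It ran from 0.0096 without double-deficient replicate 2 to 0.42 without double-deficient replicate 3.

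Prdm16, a zinc finger factor that sets and maintains brown adipocyte identity, was -0.13, 0.11, 0.21 and 0.10 in double-deficient aortas, against 0.27, -0.15, -0.14 and -0.42 in ApoE-deficient ones. ApoE-deficient aorta 1 was the highest of all 8, and the other 3 of its genotype were the lowest. The difference was 0.18 (SE 0.15, interval -0.16 to 0.52, limma adjusted p = 0.841). The 2 probe sets of Prdm16 differed over that aorta, which stood at 0.54 on the first and at 0.0011 on the second. In aorta the probe set of larger SD was the second, with a difference of 0.38 (SE 0.14, unadjusted p = 0.0288, limma adjusted p = 0.587).

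Zic1, a transcription factor gene that marks the lineage of classical brown fat, hardly varied. Its values were 0.10, 0.01, 0.07 and -0.07 in double-deficient aortas, against 0.03, -0.18, -0.11 and -0.01 in ApoE-deficient ones. The groups overlapped, and the SD of 0.0951 over the 8 aortas was larger than that of 19.3% of genes only. The difference was 0.09 (SE 0.07, interval -0.07 to 0.26, limma adjusted p = 0.825).

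Of the 8 genes 0 passed an adjusted p of 0.05 in aorta, where 0.00451% of all genes did, and 0 had an unadjusted p under 0.05, against 7.72% of all genes (limma). In 0 of 8 genes the groups were apart without overlap, against 4.3% of all genes. The differences were positive for 6 of 8 genes, where 52.8% of all genes were positive. Their median was 0.11, beside 0.0083 over all genes. The intervals of Ucp1, Cidea and Zic1 exclude a 1.5-fold change in either direction, which those of Ppargc1a, Ppara, Dio2 and Elovl3 do not. For Prdm16 the interval of the mean of the probe sets excludes it, and the second probe set alone does not. Zic1 and Prdm16 did not have the coarse rounding step, and no detection call was part of the values. Their intervals therefore bound the array signal and need not bound the transcript.

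**Figure D2:**
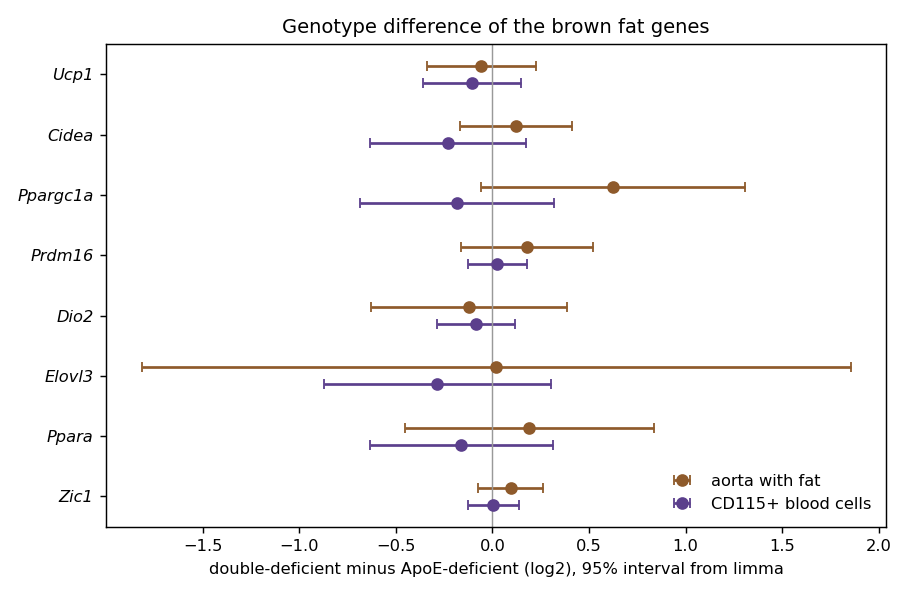
Difference between double-deficient and ApoE-deficient samples (horizontal axis, log2) of each brown fat gene in aorta with fat (brown, upper of each pair) and CD115+ blood cells (purple, lower); points are limma estimates and bars their 95% intervals. Every interval crosses 0, the one of Ppargc1a in aorta only just (-0.06 to 1.31), and that of Elovl3 in aorta is the widest.

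Genes around this set in the thermogenic pathway also gave 0 calls over all genes in aorta. Of 12 measured genes of beta-adrenergic signalling, 12 had a positive difference, with a median of 0.17. Lipe, the hormone-sensitive lipase that cyclic AMP activates, ran from 0.03 to 0.14 in double-deficient and from -0.28 to -0.03 in ApoE-deficient aortas, a difference of 0.23 (SE 0.07, limma adjusted p = 0.515). Pnpla2, the first lipase of triglyceride breakdown, differed by 0.16 (SE 0.07), and Pde3b, a phosphodiesterase that degrades cyclic AMP, by 0.41 (SE 0.15).

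Of 15 regulators of brown fat 8 were positive and 7 negative (median 0.07). Nfia, a factor that opens brown fat enhancers, ran from 0.01 to 0.27 in double-deficient and from -0.42 to -0.01 in ApoE-deficient aortas (difference 0.32, SE 0.11, limma adjusted p = 0.547). Ebf2, a lineage factor of brown preadipocytes, differed by 0.16 (SE 0.08). Irf4, which acts with PGC-1alpha in brown fat and is also a lymphocyte gene, differed the other way by -0.58 (SE 0.22).

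Mitochondrial and fuel genes of brown fat were split, 10 of 16 positive and 6 negative (median 0.10, mean 0.02). Among the negative genes were Ckmt2 at -1.64 (SE 0.96), Acot2 at -0.22 (SE 0.28) and Fabp3 at -0.18 (SE 0.15). Of the positive genes, Otop1, Slc27a2 and Ckb were named for their small p. Otop1, a proton channel enriched in brown fat, differed by 0.42 (SE 0.19), Slc27a2, a fatty acid transporter, by 0.31 (SE 0.14) and the creatine kinase gene Ckb by 0.19 (SE 0.09). The respiratory chain subunit Cox8b, a common brown fat marker, was level at -0.01 (SE 0.09). Ucp3, an uncoupling protein of muscle and brown fat, differed by 0.43 (SE 0.27).

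Of 9 beige adipocyte markers 4 were positive and 5 negative (median -0.0016), the sign of single genes being mixed. P2rx5, an ATP-gated channel, ran from 0.13 to 0.48 in double-deficient and from -0.56 to -0.13 in ApoE-deficient aortas (difference 0.57, SE 0.12, limma adjusted p = 0.407). The amino acid transporter gene Slc36a2 differed by 0.43 (SE 0.16). Epsti1 differed by -1.66 (SE 0.42, limma adjusted p = 0.461), and it is also an interferon-responsive gene of immune cells.

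Among secreted factors 6 of 8 were positive (median 0.11), with Fgf21, a hormone that brown fat can release, at 0.42 (SE 0.14), Nrg4, a neuregulin, at 0.24 (SE 0.10) and Vegfa at 0.26 (SE 0.25). In the thyroid hormone axis 6 of 7 were positive (median 0.14), among them the receptor genes Thra at 0.30 (SE 0.17) and Thrb at 0.16 (SE 0.16) and the hormone-responsive Thrsp at 0.14 (SE 0.14). Family relatives of the set were 9 of 17 positive (median 0.0024), with Cidec, the white fat counterpart of Cidea, at 0.16 (SE 0.07), Zic2 at 0.21 (SE 0.09) and Prdm1 at -0.22 (SE 0.12).

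Markers of other cells moved with genotype or varied between the same aortas. White adipocyte markers had list means of -0.17 to 0.19 in double-deficient and -0.25 to 0.06 in ApoE-deficient aortas, which overlapped. Of 12 genes 7 were positive and 5 negative (median 0.10), and 1 had an unadjusted p under 0.05 (limma). Lpl at 0.28 (SE 0.09), Tcf21 at 0.68 (SE 0.30) and Agt at 0.56 (SE 0.29) were named for their small p. They do not stand for the whole list. Smooth muscle means ran from 0.03 to 0.40 in double-deficient and from -0.33 to 0.02 in ApoE-deficient aortas, without overlap and with 8 of 8 genes positive. Lymphocyte means ran from -0.67 to -0.50 in double-deficient and from 0.04 to 1.99 in ApoE-deficient aortas, with 7 of 7 genes negative. Sympathetic nerve markers, of which Dbh differed by 0.81 (SE 0.48) and Npy by 0.61 (SE 0.33) and Chga by -0.74 (SE 0.92), were 5 of 7 positive and ran from -0.50 to 1.07 in double-deficient and from -0.69 to 1.22 in ApoE-deficient aortas. Skeletal muscle means had the widest spread, -1.28 to 1.42 in double-deficient and -1.42 to 2.16 in ApoE-deficient aortas, with 10 of 10 genes negative (median -1.28) and 0 called. Endothelial markers were 7 of 7 positive (median 0.11) and cardiac muscle markers 7 of 7 (median 0.28). The part of these cells in the values of the brown fat genes was not tested.

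Over the 8 aortas 19 of 28 pairs of brown fat genes had a positive r, with a median of 0.24 and 1 pair over 0.7. The closest positive pair was Ucp1 and Elovl3 (Pearson r = 0.74, exact permutation p = 0.0337; Spearman rho = 0.88, exact permutation p = 0.00724; n = 8). Over the 28 pairs neither passed (adjusted p = 0.341 and 0.203, exact permutation). Without double-deficient aortas 3 and 4, the 2 farthest from the median of Ucp1, r was 0.82. Ucp1 and Ppargc1a had r = 0.63 over all 8 aortas and 0.94 once the genotype means were taken out, but 0.21 without the same 2 aortas. Ppara and Ucp1 had r = 0.63, and 0.27 without them. Zic1 ran the other way from Elovl3 (r = -0.66, rho = -0.81), and Prdm16 from Dio2 (r = -0.79, exact permutation p = 0.0214, adjusted p = 0.341). Both genes of the last pair were means of disagreeing probe sets.

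Elovl3 also followed lists that describe the tissue. With the mean of the 16 mitochondrial and fuel genes of brown fat its r was 0.84 (exact permutation p = 0.00714, rho = 0.88), and with the mean of the 10 skeletal muscle markers 0.85 (exact permutation p = 0.00871, rho = 0.83). Zic1 ran against the skeletal muscle mean (r = -0.89, exact permutation p = 0.00201, rho = -0.79). Over the 56 relations between the 8 genes and 7 lists each of these 3 had an adjusted p of 0.107, as had 2 relations of Cidea, to monocyte markers (r = -0.87) and sympathetic nerve markers (r = 0.83).

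The genes whose aorta values were most like those of Ucp1, by Pearson r over the 8 aortas, were Ocstamp (0.98), Tmem37, Lipt1, Gprin2, Sema4c, Sdhaf4, Irs4, Decr1, Ube3b and Ndufab1 (0.93). Of these Decr1 is an enzyme of mitochondrial fatty acid oxidation, Ndufab1 a mitochondrial acyl carrier protein and complex I subunit, Sdhaf4 an assembly factor of succinate dehydrogenase and Lipt1 a lipoyl transferase. Those most like the mean of the 8 genes were Fxyd7 (0.96), Lyrm1, Sat2, Arvcf, Dhrs4, Oscar, Celf6, Aqp7, Idh3a and Pcsk1n (0.94). Aqp7 is the glycerol channel of adipocytes and Idh3a a subunit of a citric acid cycle dehydrogenase. They are the top of 22180 genes over few samples and are given as a description.

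The second comparison asked the same of CD115+ blood cells. Of the brown fat genes, 5 varied together there (Ucp1, Cidea, Ppargc1a, Elovl3 and Ppara), low in double-deficient preparations 2 and 3 and high in double-deficient preparation 1. Ucp1 was 0.14, -0.15 and -0.20 in double-deficient preparations 1, 2 and 3, against -0.05, 0.05 and 0.10 in ApoE-deficient preparations 1, 3 and 4. Cidea was 0.15, -0.44 and -0.26 in double-deficient preparations, against -0.11, 0.11 and 0.14 in ApoE-deficient ones. In both genes double-deficient preparations held the highest and the lowest values. Their arrays also had the larger SD over all probe sets. It was 0.19, 0.25 and 0.22 in double-deficient preparations, against 0.13, 0.15 and 0.14 in ApoE-deficient ones.

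The same order held for the genes of fuel use. Ppargc1a was 0.31, -0.30 and -0.44 in double-deficient preparations, against -0.08, 0.12 and 0.08 in ApoE-deficient ones. Ppara was 0.31, -0.30 and -0.25 in double-deficient preparations, against -0.14, 0.14 and 0.25 in ApoE-deficient ones. Elovl3 was 0.29, -0.22 and -0.53 in double-deficient preparations, against -0.12, 0.12 and 0.40 in ApoE-deficient ones, where replicate 4 was the highest of all.

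The 3 others moved less. Dio2 was 0.07, -0.07 and -0.06 in double-deficient preparations, against 0.03, -0.05 and 0.20 in ApoE-deficient ones. Prdm16 was 0.13, 0.00087 and -0.06 in double-deficient preparations, against 0.01, -0.02 and -0.0068 in ApoE-deficient ones. Zic1 was 0.01, -0.06 and 0.07 in double-deficient preparations, against 0.04, -0.02 and -0.01 in ApoE-deficient ones. Zic1 and Prdm16 did not share the order of the 5 genes above.

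**Figure D3:**
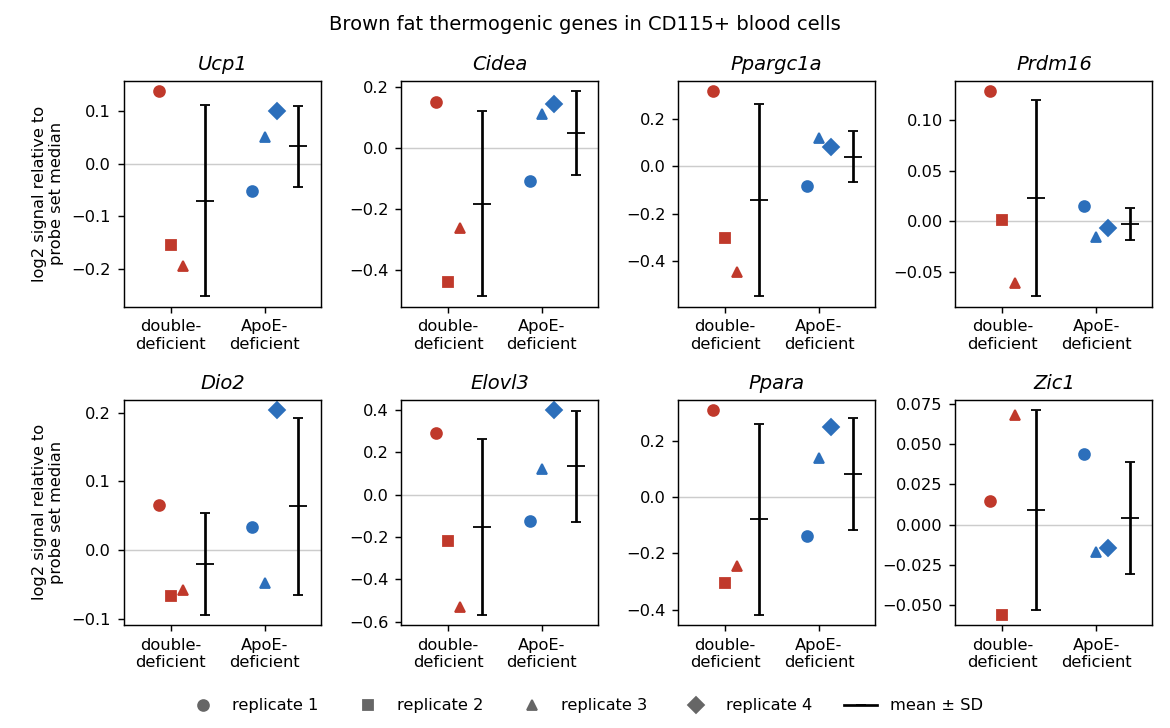
Log2 signal relative to the probe set median (vertical axis, a scale of its own in each panel) of the 8 brown fat genes in double-deficient (red, left) and ApoE-deficient (blue, right) CD115+ preparations; each symbol is 1 preparation and black bars are mean ± SD (n = 3 each). In Ucp1, Cidea, Ppargc1a and Ppara the double-deficient preparation 1 is the highest of all and preparations 2 and 3 the lowest.

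Between genotypes 0 of the 8 genes passed an adjusted p of 0.05 in CD115+ cells (0% of all genes, limma), 0 had an unadjusted p under 0.05 (4.39% of all genes) and 0 were apart without overlap (9.16% of all genes). The differences were -0.10 for Ucp1 (SE 0.10), -0.23 for Cidea (SE 0.16), -0.18 for Ppargc1a (SE 0.20), -0.16 for Ppara (SE 0.19) and -0.29 for Elovl3 (SE 0.24). Dio2, Prdm16 and Zic1 were at -0.08 (SE 0.08), 0.03 (SE 0.06) and 0.0049 (SE 0.05). The limma adjusted p-values of the 8 lay between 0.976 and 0.997. Positive differences were 2 of 8, where 44.7% of all genes were positive, and the median was -0.13 beside -0.011 over all genes. With 3 against 3 preparations the exact permutation test cannot go below 0.1, and it gave 0.4 for Ucp1, Cidea and Elovl3.

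These values depended on each double-deficient preparation. The median difference of the 8 genes was -0.28 without preparation 1, -0.06 without preparation 2 and -0.05 without preparation 3. Without preparation 2 or 3, 0 of 8 genes had an unadjusted p under 0.05 (limma). Without preparation 1, 5 of 8 genes (Ucp1, Cidea, Ppargc1a, Elovl3 and Ppara) were lower in the double-deficient preparations at such a p. Of all genes 16.2% then had such a p in either direction. The differences were then -0.21 for Ucp1 (SE 0.07, limma adjusted p = 0.234), -0.40 for Cidea (SE 0.10, limma adjusted p = 0.166), -0.41 for Ppargc1a (SE 0.09, limma adjusted p = 0.126), -0.51 for Elovl3 (SE 0.18, limma adjusted p = 0.263) and -0.36 for Ppara (SE 0.12, limma adjusted p = 0.256). None passed over all genes. Double-deficient preparation 1 had the lowest mean of the blood monocyte markers (-0.72). It was -0.12 and 0.49 in double-deficient preparations 2 and 3 and -0.11 to 0.29 in ApoE-deficient preparations.

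Lists of fat, vessel wall and nerve genes were likewise high in double-deficient preparation 1 and low in preparations 2 and 3. The white adipocyte mean was 0.20, -0.22 and -0.23 in double-deficient preparations, against -0.04, 0.12 and 0.02 in ApoE-deficient ones. The smooth muscle mean was 0.27, -0.28 and -0.23 in double-deficient preparations, against 0.0040, 0.13 and 0.05 in ApoE-deficient ones. The brown fat mitochondrial and fuel mean was 0.14, -0.21 and -0.19 in double-deficient preparations, against -0.01, 0.07 and 0.06 in ApoE-deficient ones. The sympathetic nerve mean was 0.27, -0.28 and -0.23 in double-deficient preparations, against -0.03, 0.11 and 0.09 in ApoE-deficient ones. All 4 lists were highest in double-deficient preparation 1 and lowest in preparations 2 and 3, as Ucp1 was. Muscle lists were also highest in double-deficient preparation 1, so this was not particular to fat, vessel wall and nerve genes. The cardiac muscle mean was 0.31, -0.11 and -0.21 in double-deficient preparations, against -0.05, 0.04 and -0.02 in ApoE-deficient ones. The skeletal muscle mean was 0.19, -0.20 and -0.05 in double-deficient preparations, against -0.07, 0.12 and 0.03 in ApoE-deficient ones.

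**Figure D4:**
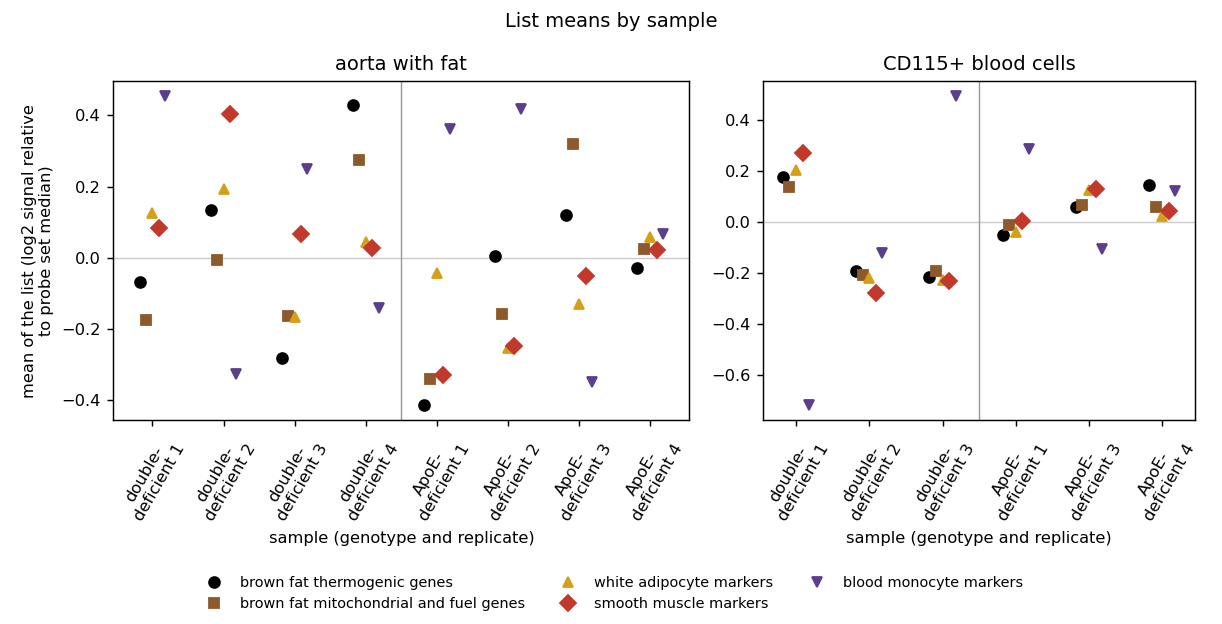
Mean log2 signal relative to the probe set medians (vertical axis) of the brown fat thermogenic genes and 4 marker lists in each sample (horizontal axis), double-deficient left of the line and ApoE-deficient right of it. In CD115+ cells brown fat, white adipocyte and smooth muscle means lie together in each preparation, while the monocyte mean is lowest (-0.72) in double-deficient preparation 1; in aorta the lists are spread.

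Across the 6 CD115+ preparations the white adipocyte mean followed Ppargc1a (r = 0.98, exact permutation p = 0.00139, adjusted p = 0.0283; rho = 1, exact permutation p = 0.00278), Ucp1 (r = 0.95, exact permutation p = 0.00972, adjusted p = 0.0415; rho = 0.94) and Cidea (r = 0.92, exact permutation p = 0.0111, adjusted p = 0.0415; rho = 0.89). The smooth muscle mean followed Cidea (r = 0.93, exact permutation p = 0.00417, adjusted p = 0.0283; rho = 0.94) and Ppargc1a (r = 0.97, exact permutation p = 0.00417, adjusted p = 0.0283; rho = 0.94). Of 56 such relations 16 passed by Pearson r in CD115+ cells and 0 of 56 in aorta. How often other genes follow these lists was not computed, so the counts do not single out the brown fat genes. Ucp1 also had r = 0.83 with the skeletal muscle mean and 0.85 with the endothelial mean in CD115+ cells (adjusted p = 0.102 each, exact permutation). By Spearman rho 0 of 56 passed in CD115+ cells, with a smallest adjusted p of 0.0778 (exact permutation), and 0 of 56 in aorta. Sympathetic nerve markers made 4 of the 16, with Ucp1 (r = 0.97), Cidea (r = 0.95), Ppargc1a (r = 0.97) and Ppara (r = 0.96). Without the 2 preparations farthest from the median, which for Ucp1 and Cidea were double-deficient 2 and 3, r with the white adipocyte mean was 0.77 and 0.73. Whether RNA of fat, vessel wall or nerve reached these preparations was not tested.

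Among the brown fat genes themselves, 3 of 28 pairs passed in CD115+ cells by exact permutation of Pearson r, and 0 by Spearman rho. They were Ucp1 and Ppargc1a (r = 0.98, exact permutation p = 0.00278, adjusted p = 0.0389; rho = 0.94, exact permutation p = 0.0167), Ucp1 and Elovl3 (r = 0.96, exact permutation p = 0.00417, adjusted p = 0.0389; rho = 0.94) and Cidea and Ppara (r = 0.96, exact permutation p = 0.00417, adjusted p = 0.0389; rho = 1). Without double-deficient preparations 2 and 3 these were 0.90, 0.92 and 0.97. With the genotype means taken out they were 0.98, 0.95 and 0.98. Ucp1 and Ppara had r = 0.98 with an adjusted p of 0.0519 (exact permutation). Zic1 had r between -0.42 and 0.05 with the others. The median r of the 28 pairs was 0.67 in CD115+ cells and 0.24 in aorta. The same values for pairs of other genes were not computed.

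**Figure D5:**
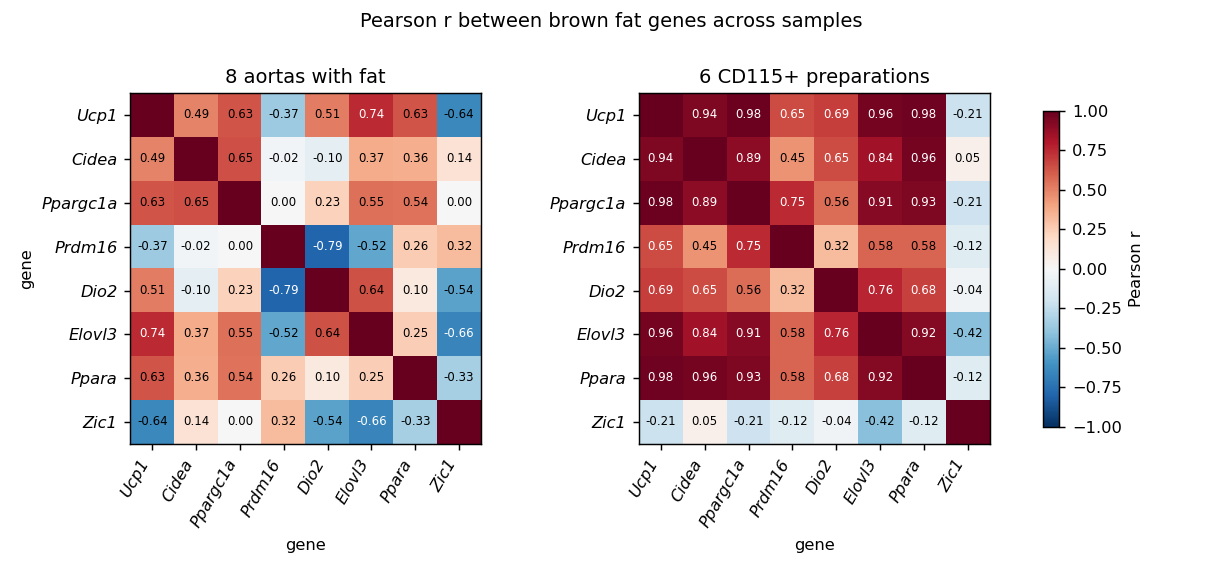
Pearson r (colour and number) of each pair of brown fat genes (both axes) over the 8 aortas (left) and the 6 CD115+ preparations (right). Ucp1, Cidea, Ppargc1a, Elovl3 and Ppara form a block of r from 0.84 to 0.98 in CD115+ cells and of 0.25 to 0.74 in aorta, while Zic1 stays outside it.

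The genes most like Ucp1 in CD115+ cells, by r over 6 preparations, were Fahd2a (1.00), Htr3a, Rps4l, Mtus1, Cox7a2, Hacd2, Bpnt1, Tbx3, Adamtsl5 and Atpaf1 (0.99). Those most like the mean of the 8 genes were Coq8a (1.00), Dynlrb1, Cd93, Creld1, Lipe, Dhcr7, Hspb1, Ccn2, Foxred1 and Srebf1 (0.99), of which Lipe is the hormone-sensitive lipase and Srebf1 a regulator of fatty acid synthesis.

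The pathway genes in CD115+ cells gave 0 calls as well. Mitochondrial and fuel genes were 2 of 16 positive (median -0.09), with Fabp3, a fatty acid carrier, at -0.18 (SE 0.07) and Cox8b at -0.04 (SE 0.09). White adipocyte markers were 2 of 12 positive (median -0.10), beta-adrenergic signalling genes 3 of 12 (median -0.01), thyroid axis genes 2 of 7 (median -0.22), secreted factors 2 of 8 (median -0.14), beige markers 1 of 9 (median -0.04), family relatives 4 of 17 (median -0.03) and regulators 8 of 15 (median 0.0098). Smooth muscle markers were 0 of 8 positive (median -0.14) and sympathetic nerve markers 1 of 7 (median -0.13). Lymphocyte markers had the largest median shift of the lists, 7 of 7 positive (median 1.38) with 0 calls. Their mean was -0.22, 1.29 and 0.67 in double-deficient preparations 1, 2 and 3, against 0.25, -0.81 and -0.61 in ApoE-deficient preparations 1, 3 and 4. It was highest in double-deficient preparations 2 and 3, where Ucp1, Cidea, Ppargc1a, Elovl3 and Ppara were lowest, and the part of lymphocytes in those values was not tested.

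The third comparison set the genotype difference in aorta against that in CD115+ cells. For the difference of differences, aorta minus CD115+, 0 of 8 genes passed an adjusted p of 0.05 (0% of all genes) and 0 had an unadjusted p under 0.05 (6.9% of all genes, limma). It was positive for 7 of 8 genes, where 54.7% of all genes were positive. Ppargc1a had the largest, 0.81 (SE 0.41, interval -0.09 to 1.70, limma adjusted p = 0.752), followed by Ppara at 0.35 (SE 0.39) and Cidea at 0.35 (SE 0.21). Ucp1 was at 0.05 (SE 0.17) and Dio2 at -0.04 (SE 0.28). Without CD115+ double-deficient replicate 1 Ppargc1a stood at 1.04 and Cidea at 0.52 (limma adjusted p = 0.365 and 0.311). Whether a mouse gave both tissues is not stated in the labels.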

How the data were processed

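For 8 aortas with perivascular fat and 6 CD115+ preparations, 1 ng of RNA each was amplified and biotin-labelled, per the labels' protocols. Titles gave each sample's group and number. The authors deposited 1 table of signed log values for 33793 probe sets on 14 arrays, read here as log2; the sources used here do not give the log base, array normalization or probe summarisation, and folds assume log2. Every probe set's median over the arrays of each tissue was 0 within 5e-07, so values had been centred per tissue, and no detection call or background was part of the values used. The number of arrays limits the precision.

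A platform annotation gave 23521 probe sets 1 symbol, 1814 several and 8458 none; the first were averaged into 22180 genes. Genes were fitted within each tissue, and over all 4 groups for the difference between tissues, with limma 3.58.1 in R 4.3.3 (lmFit, eBayes) on all genes, Benjamini-Hochberg adjusted. Correlations used exact two-sided permutation. The fits were tested on simulated data. Lists held 15 sets of genes; per list up to 3 genes of smallest p in aorta were named, with others named as common markers after their values were seen. The 10 genes of highest r with Ucp1 and with the mean of the set (each gene scaled by its SD) were named in aorta, and in CD115+ cells as an addition; gene models, predicted genes, pseudogenes, small RNA and odour, taste and pheromone receptor genes were left out. Members and lists were chosen with earlier results of these data known. A gene had the coarse rounding step where its values on every array of a tissue were whole multiples of that step within 0.02 steps.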

Additional observations from a re-analysis of the deposited data

Results flagged for a closer look

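Elovl3 had 1 aorta far from the rest in each genotype. In double-deficient aortas replicate 4 stood at 1.55, against -0.79 to -0.40 in the other 3, and in ApoE-deficient aortas replicate 1 stood at -2.23, against 0.40 to 0.94. The same check, of the gap to the nearest sample over the range of the group (critical value 0.829), picked 6 other genes of the lists. Mylpf, a skeletal muscle light chain, was at 1.76 in double-deficient aorta 4, against -2.23 to -1.55 in the others. Thrb (-0.15) and Cidec (-0.0497) were low in double-deficient aorta 3, where the others ran from 0.0691 to 0.0963 and from 0.127 to 0.134. In ApoE-deficient aortas Zic2 was high in replicate 3 (0.0851), Mylk high in replicate 4 (-0.0028) and Myh6, a cardiac myosin, low in replicate 1 (-0.23). In all 8 of 106 groups were picked, and chance picks about 1 in 20.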

How the results depend on the processing

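Members called stayed at 0 in both tissues and between tissues under every alternative run. Alternatives also moved how many of all 22180 genes had an unadjusted p under 0.05 (limma). With array weights these were 1029 upward and 1060 downward in CD115+ cells, against 457 and 517 in the main fit. Between tissues they were 1466 and 1270 with array weights and 1212 and 1258 without CD115+ double-deficient replicate 1, against 756 and 774. In aorta 1 fit over all 4 groups gave 1352 and 1098, against 867 and 846. Unadjusted p-values under 0.05 appeared in aorta for Ppargc1a with array weights (0.70), 1 fit over all 4 groups or the genes of larger SD (0.62 each) and for Prdm16 with the probe set of largest SD (0.38) or without ApoE-deficient replicate 1 (0.31), and with array weights for Cidea in CD115+ cells (-0.33) and for Cidea (0.47) and Ppargc1a (1.01) between tissues, where Ppargc1a also had one without aorta double-deficient replicate 3 (1.05), as had Ppargc1a (1.04) and Cidea (0.52) without CD115+ double-deficient replicate 1. Counts of all genes called in aorta moved to 0 with robust eBayes, array weights or the probe set of largest SD, to 7 with the genes of larger SD alone and to 19 in 1 fit over all 4 groups, against 1. Leaving out 1 array gave 0 to 74 (74 without ApoE-deficient replicate 3), and between tissues 0 to 58 (58 without CD115+ double-deficient replicate 1). The genes of larger SD alone gave 2 in CD115+ cells and 1 between tissues. Signs of uncalled small differences turned for Prdm16 in CD115+ cells with array weights (-0.00081) and, between tissues, for Dio2 with the probe set of largest SD (0.0607). With the replicate block, Dio2 and Ppara in CD115+ cells (replicates 1 and 3) were at 0.0103 and 0.0323 and Ucp1 between tissues at -0.0283; in aorta the block gave 1 called gene. In deviations from group means, same-numbered aortas had r = 0.17, -0.15, -0.14 and 0.06 over genes. Same-numbered CD115+ preparations 1 and 3 had r = -0.47 and -0.29. So few samples cannot decide whether equal numbers pair the samples. Leaving out 1 array moved Ucp1 from -0.14 to 0.0394 in aorta and from -0.0383 to 0.15 between tissues, Dio2 from -0.31 to 0.00717 and from -0.22 to 0.0906, Elovl3 from -0.70 to 0.35 and from -0.42 to 0.64, and in CD115+ cells Prdm16 from -0.0277 to 0.0674 and Zic1 from -0.0247 to 0.0374. Pairs with r over 0.7 in aorta were 1, but 3 without the 2 farthest samples and 3 without genotype means; by Spearman rho 0 pairs passed in CD115+ cells, against 3. A trend in eBayes was not run, since centred values hold no level. Single preparations alone were not run, since 1 ApoE-deficient CD115+ sample would stay. The causes were not tested. No detection limit was part of the values.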
